A study of Mus musculus with 24 samples.

Results

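The nuclear genes of the mitochondrial ATP synthase were followed in the medial prefrontal cortex (mPFC) of mice given an antidepressant, a gut bacterium, both or neither. The members were taken by gene symbol from the table of normalized counts, namely Atp5a1, Atp5b, Atp5c1, Atp5d, Atp5e, Atp5g1, Atp5g3, Atp5h, Atp5j and Atp5l. All 10 were in the table of 15456 genes, and all 10 were among the 14974 genes tested. The animals were male BALB/c OlaHsd mice at 11 weeks of age, and each group held 6 of them with 1 library per mouse. The control mice, titled as untreated, received PBS by gavage and injection according to the methods, the duloxetine group had daily injections of that serotonin and norepinephrine reuptake inhibitor, the *R. flavefaciens* group had the live bacterium by gavage, and the combined group had both. Whether mice with a single treatment also received the PBS of the other route, and whether the sequenced mice had taken the behavioural tests, is not given in the sources used here. The tissue was a punch of the whole mPFC, so that fewer cells of a type and less RNA per cell cannot be told apart. Mice are named here by the numbers in their sample titles.

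ATP synthase, or complex V, is the last enzyme of oxidative phosphorylation. Protons that the respiratory chain has pumped out of the mitochondrial matrix flow back through a ring in the inner membrane, the ring turns a central stalk, and the stalk drives the catalytic head to make ATP from ADP and phosphate. Neurons depend on it heavily, since most of their ATP pays for ion pumping and transmission at synapses. Apart from a pair of membrane subunits kept in mitochondrial DNA, its parts are made from nuclear genes and imported.

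The promoters of the 4 subunits with the largest differences between *R. flavefaciens* and control mice are shown first, because short motifs of factors known for nuclear genes of mitochondria could be searched there. The RefSeq promoter table (GRCm38.p6, windows of 300 bases, of which 250 lie before the start) held 12 windows for 9 of the 10 members. Both strands were searched for CGCATGCG (NRF1), CCGGAAG (ETS factors such as GABP, read as CTTCCGG on the other strand), AAGATGGCG (YY1) and GGGCGGG (SP factors), which do not overlap in these stretches. Capitals mark the matches, every stretch is on the minus strand and is written 5′ to 3′, that of Atp5h ends inside the first exon that GENCODE gives, and the choice of these 4 followed their expression values.
Atp5l, chr9:44920933-44920992: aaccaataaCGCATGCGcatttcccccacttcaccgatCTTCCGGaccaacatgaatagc
Atp5j, chr16:84835024-84835123: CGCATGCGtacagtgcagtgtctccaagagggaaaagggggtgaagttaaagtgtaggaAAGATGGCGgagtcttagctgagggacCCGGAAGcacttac
Atp5h, chr11:115419945-115420004: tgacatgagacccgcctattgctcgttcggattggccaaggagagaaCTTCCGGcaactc
Atp5e, chr2:174464106-174464221: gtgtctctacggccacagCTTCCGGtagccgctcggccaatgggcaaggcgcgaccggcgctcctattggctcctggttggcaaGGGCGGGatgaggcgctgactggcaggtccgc

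Atp5l held the NRF1 and ETS letters, Atp5j those of NRF1, YY1 and ETS, Atp5h those of ETS, and Atp5e those of ETS and SP. The Atp5j stretch comes from one of the windows of that gene, and another holds the SP letters. It lies between first exons of Gabpa, which runs the other way and encodes an ETS factor. The ETS letters stood in the windows of 4 of the 9 members, against 18.0% of the 11373 genes of the table that have a window, and in 8.86% of all 32851 windows. The NRF1 letters were found in 2 members, against 3.99% of those genes and 1.87% of all windows. For YY1 it was 1 member, with 3.20% of genes and 1.40% of windows, and for SP 3 members, with 50.5% of genes and 25.6% of windows. The windows of Atp5c1, Atp5d, Atp5g1 and Atp5g3 held none of the 4 letter strings, and that of Atp5b held SP only. A match of letters was not tested as a binding site.

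All 10 subunits were abundant transcripts of the mPFC. In control mice their mean level per kilobase of transcript ran from 1185 normalized counts per kilobase for Atp5l to 7112 for Atp5b, and the member with the lowest level still stood above 94.9% of the genes of the table. Atp5b and Atp5a1, which encode the catalytic beta and the regulatory alpha subunits of the head, led with 7112 and 4285 normalized counts per kilobase, and Atp5g3 and Atp5g1, for the subunit c of the membrane ring, followed with 3192 and 2259. Together the 10 genes took between 0.245% and 0.255% of all normalized counts in each control mouse, between 0.246% and 0.254% with duloxetine, between 0.253% and 0.304% with *R. flavefaciens* and between 0.235% and 0.271% with both treatments. Depth was similar, with group medians of recovered reads between 13591497 and 14621656 per mouse.

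**Figure D1:**
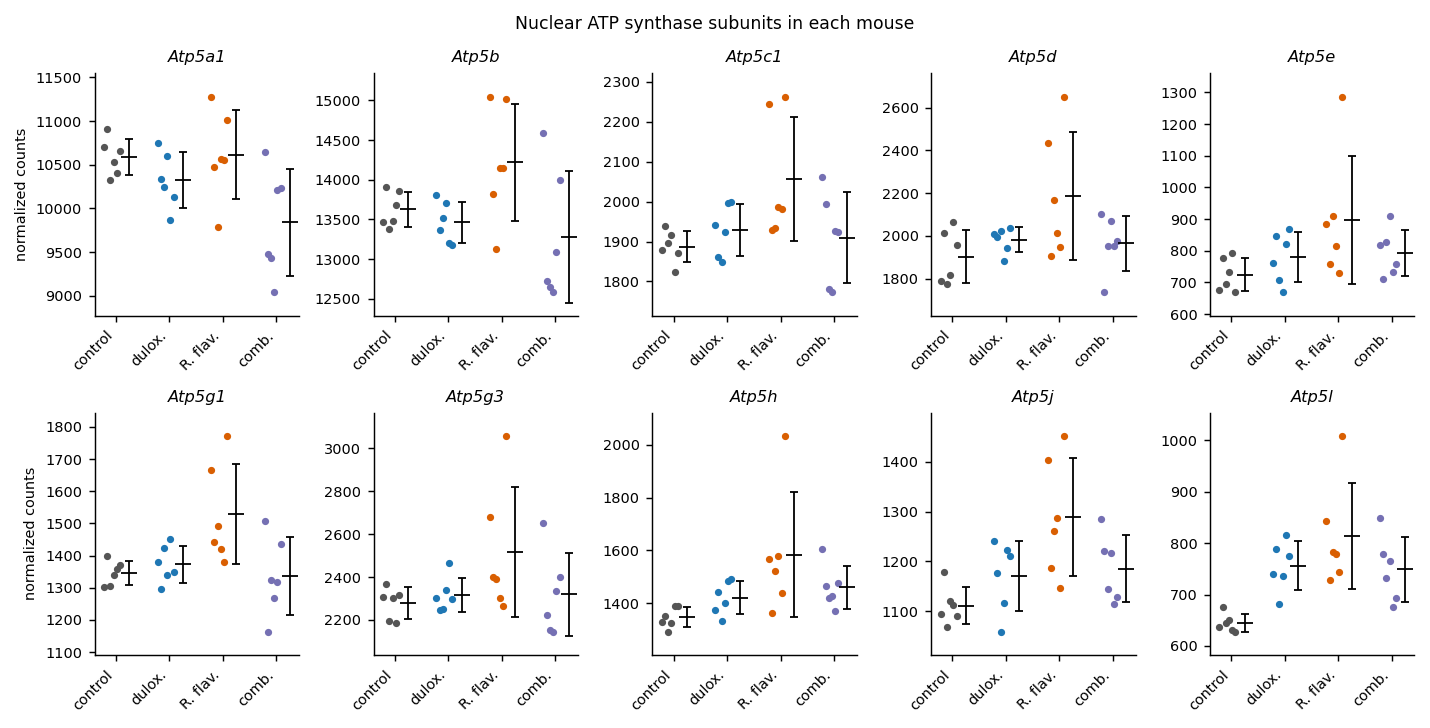
Normalized counts (y axis, which does not start at 0) of each of the 10 subunits in each mouse (points) of the 4 groups, with group mean and SD (black bars, n = 6). One mouse of the *R. flavefaciens* group, 9_3, is the highest of all 24 for 8 of the 10 genes, and every treated mouse lies above every control mouse for Atp5l.

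No member passed an adjusted p-value of 0.05 in limma in any of the 8 comparisons. Against control, limma called 0% of all tested genes for duloxetine, 0.0267% for *R. flavefaciens* and 0.1% for both treatments. It called 0% for both treatments against duloxetine alone, 2.23% for both against *R. flavefaciens* alone, 0.0267% for the bacterium averaged over duloxetine, 1.03% for duloxetine averaged over the bacterium and 0% for the interaction. The count models read the same mice differently in 3 of these comparisons, since DESeq2 called 3 members for *R. flavefaciens* against control, 1 for both treatments against *R. flavefaciens* and 1 for the averaged bacterium, where it called 3.26%, 4.17% and 2.95% of all tested genes, while edgeR called 0 members throughout. Without mouse 2_1, DESeq2 called 3, 0 and 1 members in these comparisons, beside 1.99%, 3.7% and 1.73% of all tested genes. At an unadjusted p-value under 0.05, limma found 8 members higher with *R. flavefaciens* than in control, 1 higher with duloxetine, and 1 higher and 1 lower with both treatments. DESeq2 and edgeR found the same number of members, 8, 1 and 2, in these 3 comparisons.

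The question of the first comparison was whether the bacterium alone was accompanied by other levels of the enzyme's genes. All 10 subunits had a higher fitted level with *R. flavefaciens* than in control mice, although Atp5a1, at 0.00, lay on the other side of 0 when a trend with transcript length was removed. The members had a median log2 fold change of 0.18 on the log2(value + 1) scale against 0.00 over all tested genes. The 8 members with an unadjusted p-value under 0.05 compare with 8.86% of all tested genes in that direction. The lowest adjusted p-value was 0.0687 in limma, and 3 members, Atp5l, Atp5j and Atp5h, lay under 0.1, as did 3.87% of all tested genes. In limma the number of members past 0.05 was 3 without mouse 8_3, 1 without mouse 9_1 and 5 without mouse 9_2, against 0 with all mice. The share of all tested genes past 0.05 in these fits is not given here, so the counts cannot be set against calls in general. The number under 0.1, 3 with all mice, was 0 without 1_1, 2_2, 2_3, 3_3 or 9_3, 1 without 2_1, 7_2 or 8_4, 7 without 8_3 and 6 without 9_1 or 9_2, and it was 0 with the length trend taken off or when only these 2 groups were fitted. The share of all tested genes under 0.1 in these other fits is likewise not given here.

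Within the catalytic head, the longest and most abundant transcripts differed least. Atp5a1 ranged from 10327 to 10906 normalized counts in the control mice (median 10597) and from 9792 to 11279 with *R. flavefaciens* (median 10560). With the bacterium, 2 mice lay above and 1 below every control mouse, and the log2 fold change was 0.00 ± 0.04 (SE, n = 6 and 6, limma adjusted p = 0.986, exact permutation p = 0.946). Atp5b, for the subunit that carries the catalytic sites, ranged from 13372 to 13903 in control mice (median 13580) and from 13123 to 15047 with the bacterium (median 14151), a difference of 0.06 ± 0.04 on the log2 scale (limma adjusted p = 0.464, exact permutation p = 0.102), which was 0.02 with the length trend taken off. For Atp5b, 4 of the 6 treated mice lay above every control mouse and 1 below.

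The central stalk, whose gamma, delta and epsilon subunits come from Atp5c1, Atp5d and Atp5e, had larger differences. Atp5c1 measured 1887 ± 39.8 normalized counts in control mice and 2057 ± 154 with *R. flavefaciens* (SD, n = 6 each), and its log2 fold change was 0.12 ± 0.05 (SE, limma adjusted p = 0.151, exact permutation p = 0.00649). Atp5d went from 1903 ± 125 to 2186 ± 298, a difference of 0.19 ± 0.07 on the log2 scale (limma adjusted p = 0.117, exact permutation p = 0.0498). In both genes 6 of 6 treated mice lay above the control mean, but the ranges overlapped. Atp5e ran from 669 to 792 normalized counts in the control mice (median 714) and from 730 to 1286 with *R. flavefaciens* (median 850). Its log2 fold change of 0.29 ± 0.10 (limma adjusted p = 0.115, exact permutation p = 0.0238) rested in part on mouse 9_3, which stood at 1286 while the next highest mouse was at 909. Without that mouse the mean of Atp5e exceeded the control mean by 13.2%, against 23.9% with it. With the length trend taken off, the log2 fold changes of Atp5c1, Atp5d and Atp5e were 0.03, 0.09 and 0.17.

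In the membrane ring, Atp5g1 and Atp5g3 encode the same mature subunit c behind different import signals. Atp5g1 ran from 1304 to 1399 normalized counts in control mice (median 1349) and from 1381 to 1772 with *R. flavefaciens* (median 1466). All but 1 of the treated mice lay above every control mouse, and the log2 fold change was 0.18 ± 0.06 (limma adjusted p = 0.108, exact permutation p = 0.00433). Atp5g3 measured 2279 ± 73.1 in control mice and 2515 ± 303 with the bacterium, a difference of 0.13 ± 0.06 on the log2 scale (limma adjusted p = 0.207, exact permutation p = 0.0563). Without mouse 9_3 the difference of Atp5g3 was 0.08, and with the length trend taken off Atp5g1 and Atp5g3 stood at 0.06 and 0.02. The highest values of Atp5g3 in that group were those of mice 9_3 and 7_2, at 3058 and 2679.

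The peripheral stalk holds the head still while the ring turns, and Atp5h and Atp5j encode its subunits d and F6. Atp5h ran from 1293 to 1391 normalized counts in control mice (median 1341) and from 1362 to 2034 with *R. flavefaciens* (median 1546). Of the 6 treated mice, 5 lay above every control mouse, and the log2 fold change was 0.22 ± 0.06 (limma adjusted p = 0.0806, exact permutation p = 0.00649). Atp5j ran from 1068 to 1178 in control mice (median 1103) and from 1147 to 1452 with the bacterium (median 1274), a difference of 0.21 ± 0.05 on the log2 scale (limma adjusted p = 0.0727, exact permutation p = 0.00433). Again 5 of 6 treated mice exceeded every control. Without mouse 9_3 the log2 fold change of Atp5h was 0.15, and with the length trend taken off those of Atp5h and Atp5j were 0.11 and 0.10. In GENCODE vM21, 12.7% of the exonic bases of Atp5j are shared with Gabpa on the opposite strand, and since it is not stated whether strand was used in counting, reads there cannot be told apart. The same holds for 4.11% of those of Atp5a1, shared with Haus1, 3.53% of those of Atp5d, shared with Cbarp, and 2.06% of those of Atp5l, shared with Gm30934.

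Atp5l, for the small membrane subunit g that helps to join enzymes into dimers, was the member with the largest difference. It ran from 628 to 675 normalized counts in control mice (median 641), from 682 to 815 with duloxetine (median 758), from 728 to 1008 with *R. flavefaciens* (median 780) and from 676 to 850 with both treatments (median 749). Every mouse of each treated group lay above every control mouse. With both treatments this was nearly a tie, since mouse 12_3 stood at 675.6 and control mouse 2_1 at 675.19. Such a complete separation upward was found for 0.167% of all tested genes with duloxetine, 0.788% with *R. flavefaciens* and 0.882% with both treatments, and Atp5l was the 1 member that had it, in all 3 comparisons, which share the same controls. The log2 fold changes were 0.23, 0.33 and 0.21, each ± 0.07 (SE), with limma adjusted p-values of 1.00, 0.0687 and 0.128. The exact permutation p was 0.00216 in each, the smallest that 924 groupings of 12 mice allow. Against one another the 3 treated groups overlapped, and duloxetine and both treatments, at 756 ± 47.1 and 749 ± 63.2 (SD), differed by a log2 fold change of -0.01 (95% interval -0.15 to 0.12). GENCODE vM21 names the pseudogenes Atp5l-ps1, Atp5l-ps2 and Atp5l2-ps, and how the authors' counting treated reads shared with such copies is not given in the sources used here.

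**Figure D2:**
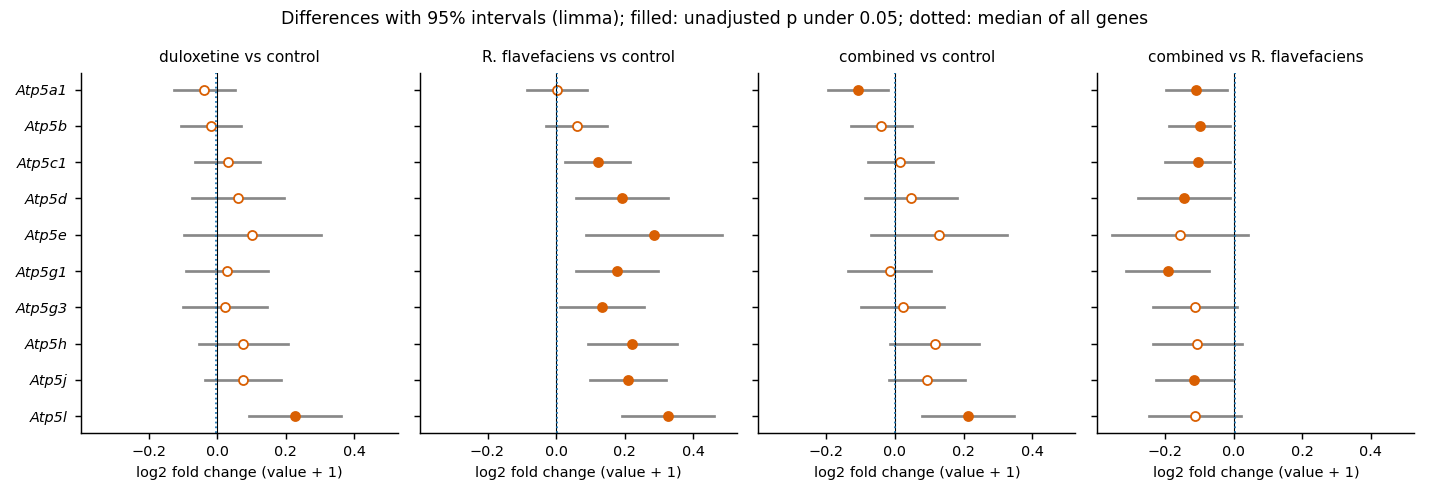
Log2 fold changes on the log2(value + 1) scale (x axis) of the 10 subunits (y axis) in 4 comparisons, with 95% limma intervals, filled where the unadjusted p-value was under 0.05, and the median of all tested genes as a dotted line. The points of 8 members are filled for *R. flavefaciens* against control, and all 10 points lie below 0 for both treatments against *R. flavefaciens*.

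The differences were uneven across mice. Each mouse was scored by the mean log2 difference of its 10 subunits from the control means. The scores lay between -0.04 and 0.06 in control mice, between 0.00 and 0.10 with duloxetine, between 0.06 and 0.42 with *R. flavefaciens* and between -0.0041 and 0.18 with both treatments. Mouse 9_3 stood at 0.42 and mouse 7_2 at 0.26, followed by mouse 10_2 of the combined group at 0.18, whereas the other 4 mice given the bacterium alone lay between 0.06 and 0.13. Mouse 9_3 had the highest value of all 24 mice for 8 members and mouse 7_2 for the remaining 2, Atp5a1 and Atp5b. Without mouse 9_3 the median log2 fold change of the members for *R. flavefaciens* against control was 0.13, and 7 members had an unadjusted p-value under 0.05. The share of all tested genes at that level without mouse 9_3 is not given here. The coefficient of variation between mice, taken over the 10 genes, had a median of 2.83% in control mice, 3.81% with duloxetine, 11.1% with *R. flavefaciens* and 6.43% with both treatments.

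**Figure D3:**
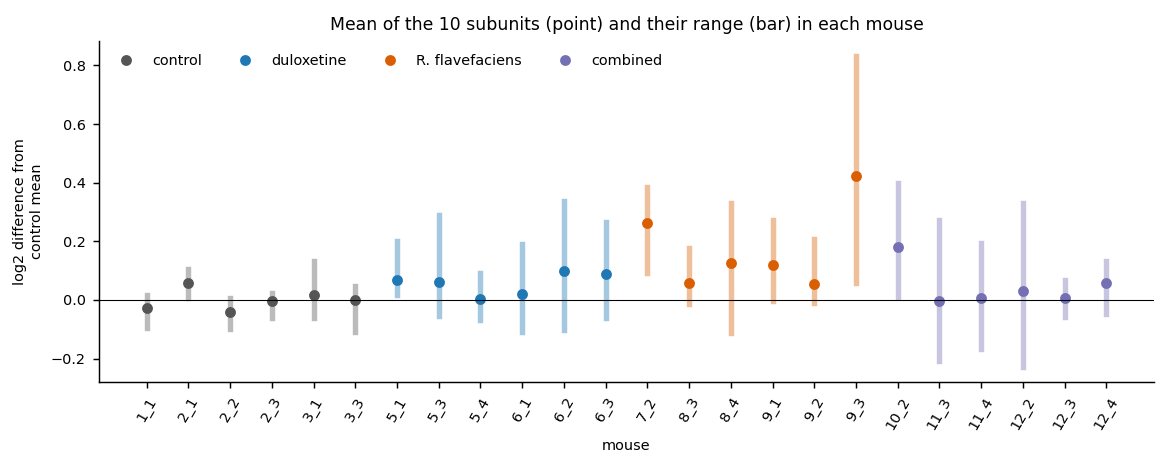
Mean log2 difference of the 10 subunits from their control means (points, y axis) and the range over the 10 genes (bars) in each of the 24 mice (x axis), coloured by group. Mice 9_3 and 7_2 of the *R. flavefaciens* group are highest, at 0.42 and 0.26.

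Within groups, the subunits moved together to unequal degrees. Over the 24 mice and after group means were taken off, 44 of the 45 pairs of members had a positive Pearson correlation, with a median of 0.64, or 0.48 without mouse 9_3. All pairs come from the same libraries. Depth had been taken off by the normalization, but both genes of a pair share whatever else differs between libraries. Correlations between pairs of other genes are not given here. The highest was between Atp5a1 and Atp5b, at 0.91 with mouse 9_3 and 0.91 without it, and the lowest between Atp5a1 and Atp5e, at -0.04 and -0.29. Among genes outside the ATP synthase lists, those most like the mean of the members were Cox7b (r = 0.93), Psmb4 (0.91), Tagln3 (0.91), Cox6b1 (0.90) and Cox7a2 (0.90). Without mouse 9_3 these values were 0.86, 0.81, 0.81, 0.80 and 0.80. Cox7b, Cox6b1 and Cox7a2 encode nuclear subunits of complex IV, and Psmb4 a subunit of the proteasome.

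Transcript length moved with the difference, both among the members and among all genes. Over the 10 members the Spearman correlation of the log2 fold change was -0.85 with length and -0.88 with mean level. Length and level cannot be told apart in these 10 genes. For *R. flavefaciens* against control, the median log2 fold change went from 0.13 in the shortest decile of transcripts to -0.14 in the longest. The members are mostly short, with 7 of the 10 in the shortest decile, from 421 bases for Atp5e to 931 for Atp5d, while Atp5a1 has 2471. Compared with the median of their own decile, 8 of the 10 members were higher, the median of the 10 differences was 0.05, and 2 members, Atp5e and Atp5l, lay above its upper quartile. When the trend with length was taken off, the median of the members was 0.08, and it was 0.05 when length and GC content were taken off together. In these fits 4 and 3 members were higher at an unadjusted p-value under 0.05, against 6.02% and 6.08% of all tested genes. Atp5l had a log2 fold change of 0.21 for *R. flavefaciens* and 0.16 for duloxetine with the length trend taken off, but 0.07 for both treatments.

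**Figure D4:**
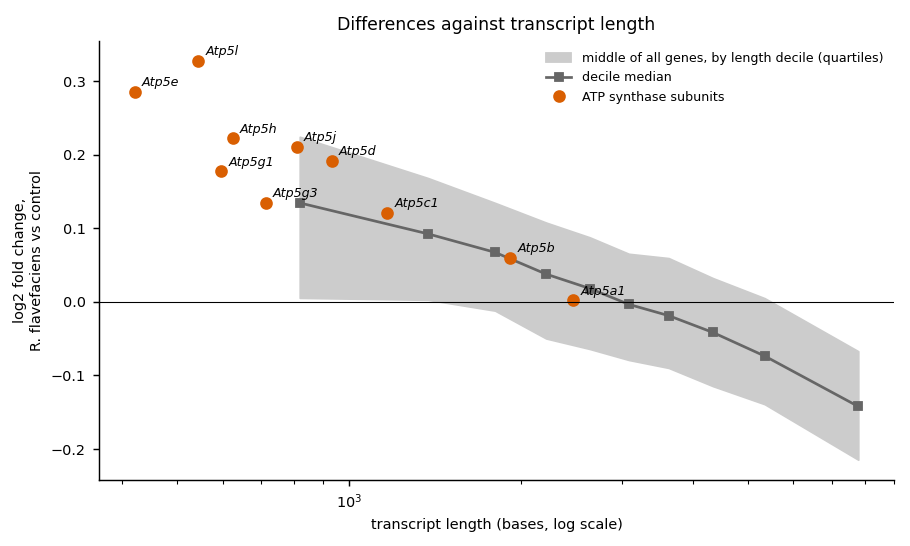
Log2 fold change for *R. flavefaciens* against control (y axis) of the 10 subunits (orange) against transcript length in bases (x axis, log scale), over the median (grey line) and quartiles (band) of all tested genes in deciles of length, drawn at each decile's median length. Atp5l and Atp5e lie above the band of the shortest decile, and Atp5a1 and Atp5b lie just under the median of theirs.

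Duloxetine alone went with smaller differences. The median log2 fold change of the members was 0.05, with 8 above and 2 below 0, but with the length trend taken off 5 lay above 0 and the median was -0.0014, and with length and GC content taken off it was 0.0013. Atp5l was the 1 member with an unadjusted p-value under 0.05, against 2.2% of all tested genes in that direction. For the other 9 members the fold change lay between -0.04 and 0.10 on the log2 scale. Atp5h, at 1421 ± 62.1 normalized counts against 1347 ± 38.7 in control mice (SD, n = 6 each), had an exact permutation p of 0.0411 and a limma adjusted p of 1.00.

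With both treatments, 7 subunits had a higher and 3 a lower fitted level than in control mice, but 1 was higher and 9 were lower with the length trend taken off. Their median was 0.03 on the log2 scale, and -0.05 without that trend. It was 0.08 after quantile normalization, 0.07 at the 75th percentile, 0.02 with the GC trend taken off or without mouse 2_2, 0.06 without mouse 11_3 and 0.0094 without mouse 10_2. Atp5l was higher and Atp5a1 lower at an unadjusted p-value under 0.05, against 8.08% and 8.73% of all tested genes. Atp5a1 ran from 9041 to 10651 normalized counts (median 9843) and lay below every control mouse in 5 of 6 mice, a difference of -0.11 ± 0.04 on the log2 scale (limma adjusted p = 0.221, exact permutation p = 0.0173), which was -0.04 after quantile normalization. Atp5h had 5 of 6 mice above every control and a difference of 0.12 ± 0.06 on the log2 scale (limma adjusted p = 0.348, exact permutation p = 0.00649). With the length trend taken off, Atp5h stood at -0.02 and Atp5l at 0.07. Without mouse 9_3, which is in neither of these groups but shares their fit, 1 member passed the adjusted threshold in limma, Atp5l, at 0.0493. The share of all tested genes called without that mouse is not given here.

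The next comparison asked what duloxetine added to the bacterium. All 10 members had a lower fitted level with both treatments than with *R. flavefaciens* alone, with a median log2 fold change of -0.11 against 0.00 over all tested genes. Of these, 6 had an unadjusted p-value under 0.05, namely Atp5a1, Atp5b, Atp5c1, Atp5d, Atp5g1 and Atp5j, against 9.9% of all tested genes in that direction. Atp5g1 ran from 1164 to 1508 normalized counts with both treatments (median 1321), against 1381 to 1772 with the bacterium alone. Its log2 fold change was -0.19 ± 0.06 (limma adjusted p = 0.073, exact permutation p = 0.039), and 4 of the 6 mice given both lay below every mouse given the bacterium. Atp5g1 passed the adjusted threshold in limma when mouse 9_2 or mouse 10_2 was left out. It also passed with the length trend taken off (limma adjusted p = 0.0398), but not with length and GC content taken off (0.0896). The count of 6 was 2 without mouse 9_3 or without mouse 7_2, 3 without mouse 11_4 or without mouse 12_2, and 9 without mouse 10_2. It was 1 when the fit held these 2 groups alone, 3 after quantile normalization and 2 after rescaling to the 75th percentile. With the length trend taken off it was 9, and with the GC trend, or length and GC content, taken off it was 8. The share of all tested genes in each of these other fits is not given here.

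Against duloxetine alone, both treatments gave a median log2 fold change of -0.01, and 0 members had an unadjusted p-value under 0.05 by limma, DESeq2 or edgeR, against 3.02% of all tested genes that were higher. The median was -0.06 with 0 members above 0 when the length trend was taken off, 0.02 with 8 above 0 after quantile normalization, and between -0.04 (without mouse 10_2, where 1 member had an unadjusted p-value under 0.05) and 0.0019 (without mouse 11_3) when 1 mouse was left out. Averaged over duloxetine, the bacterium gave a median of 0.08 and 4 members higher at that level, against 7.68% of all genes. With the length trend, or length and GC content, taken off, the median was 0.0025 and 0.0022, 5 members lay above 0, and 0 had an unadjusted p-value under 0.05 in limma, whereas quantile normalization gave 8. Duloxetine averaged over the bacterium gave a median of -0.04 and 1 member lower, Atp5a1, against 7.49%. That median was -0.01 without mouse 9_3, -0.03 without mouse 7_2 and -0.07 with the length trend taken off, where 4 members were under 0.05, and at the 75th percentile it was -0.02 with 0 members. In the interaction, which measures whether both treatments together differ from the sum of each, all 10 members had a negative term with a median of -0.19 on the log2 scale, or -0.11 with length and GC content taken off. Of these, 6 had an unadjusted p-value under 0.05, against 3.67% of all tested genes, with adjusted p-values of 0.639 and above. That count was 3 without mouse 1_1, 2_2, 7_2 or 9_3, and 3 with quantile normalization or with the trends of length and GC content removed. The term of Atp5l was -0.34 ± 0.09 (SE, limma adjusted p = 0.639).

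The other subunits of the enzyme in the table are Atp5f1, Atp5g2, Atp5j2, Atp5k, Atp5o, Usmg5 and 2010107E04Rik from the nucleus and mt-Atp6 and mt-Atp8 from mitochondrial DNA. With *R. flavefaciens*, 8 of these 9 were higher than in control mice at an unadjusted p-value under 0.05, against 8.86% of all tested genes, and 0 passed the adjusted threshold in limma or edgeR and 4 did in DESeq2, which called 3.26% of all tested genes, with a median log2 fold change of 0.23. Of the membrane subunits, Atp5k stood at 0.36, Atp5j2 at 0.31, 2010107E04Rik at 0.30, Usmg5 at 0.28, mt-Atp6 at 0.23, Atp5g2, a further gene for subunit c, at 0.16 and mt-Atp8 at 0.11. Atp5f1 and Atp5o of the peripheral stalk stood at 0.12 and 0.11. Mouse 9_3 had the highest Atp5o, mt-Atp8 and mt-Atp6 of the *R. flavefaciens* group, at 1960, 8407 and 71016 normalized counts. For mt-Atp6 the next highest mouse of that group, 8_4, stood at 57548, and for mt-Atp8 mouse 9_1 stood at 7702. The differences of these other subunits without that mouse are not given here. With both treatments, 6 of the 9 were higher at that level, against 8.08% of all tested genes, among them Atp5k at 0.34 and Usmg5 at 0.22. Of these 9, limma and edgeR called 0 and DESeq2 called 2 at the adjusted threshold, beside 1.45% of all tested genes in DESeq2.

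The mitochondrially encoded subunits had another order across the groups. For mt-Atp8 the means were 6732 ± 280 normalized counts in control mice, 8359 ± 1024 with duloxetine, 7280 ± 667 with *R. flavefaciens* and 8487 ± 1294 with both (SD, n = 6 each). Every duloxetine mouse lay above every control mouse for mt-Atp8 (log2 fold change 0.30 ± 0.08, limma adjusted p = 1.00, exact permutation p = 0.00216), while with the bacterium alone 3 of 6 did (0.11 ± 0.08, limma adjusted p = 0.493). For mt-Atp6 the log2 fold changes were 0.25, 0.23 and 0.35 for duloxetine, *R. flavefaciens* and both, with limma adjusted p-values of 1.00, 0.165 and 0.0912. With both treatments against the bacterium alone, mt-Atp8 and mt-Atp6 had positive values of 0.21 and 0.12, where all 10 nuclear members had negative ones. For duloxetine averaged over the bacterium, mt-Atp8 passed the adjusted threshold in limma (0.26 ± 0.06, adjusted p = 0.0314), in DESeq2 and in edgeR, which called 1.03%, 2.14% and 0.935% of all tested genes. It was the 1 subunit of the enzyme outside the 10 members called by limma in any of the 8 comparisons. With the length trend, the GC trend and both taken off, its log2 fold change was 0.15, 0.12 and 0.05, with limma adjusted p-values of 0.0585, 0.233 and 0.572. The adjusted p was also above 0.05, at most 0.0664, when 2_1, 3_1, 5_3, 6_2, 6_3, 11_3 or 12_2 was the 1 mouse left out, where the log2 fold change lay between 0.23 and 0.26. Transcripts of mitochondrial DNA carry short poly(A) tails, and how evenly the poly(A) selection caught them was not tested.

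**Figure D5:**
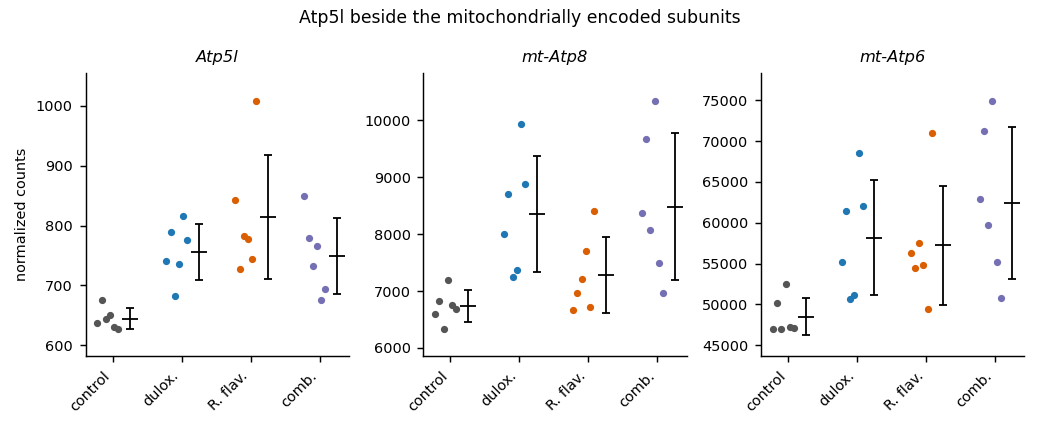
Normalized counts (y axis, which does not start at 0) of nuclear Atp5l and of mt-Atp8 and mt-Atp6 in each mouse (points) of the 4 groups, with group mean and SD (black bars, n = 6). Every duloxetine mouse lies above every control mouse for Atp5l and mt-Atp8, whereas with *R. flavefaciens* 3 of 6 mice do for mt-Atp8.

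Genes around the enzyme were counted in the same way for *R. flavefaciens* against control. Of 8 genes listed for assembly and inhibition, 4 were higher at an unadjusted p-value under 0.05, against 8.86% of all tested genes. These were Atpif1, Atpaf2, Fmc1 and Tmem242, with log2 fold changes of 0.21, 0.18, 0.26 and 0.17. Atpif1 encodes the inhibitor that stops the enzyme from running backwards. Atpaf1, Tmem70, Atp5s and 5730455P16Rik, at 0.03, 0.08, 0.06 and -0.10, did not reach that level. The symbol 5730455P16Rik was listed as another name of one of these genes, but all the others were present under their own symbols. It is therefore a further gene, and its part in assembly or inhibition was not checked. Of 9 genes for the exchange of ADP, ATP and phosphate, 3 were higher, against the same 8.86%, Slc25a4 and Slc25a5 among them at 0.14 and 0.12, which encode the carriers that swap ADP for ATP, and Vdac3 at 0.09. Slc25a3, the phosphate carrier, stood at 0.04, and Vdac1, Vdac2, Ckb and Ckmt1 at 0.05, 0.04, 0.09 and -0.02. At the adjusted threshold, limma and edgeR called 0 genes of these lists, and DESeq2, which called 3.26% of all tested genes, called 1 gene for assembly and inhibition.

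Regulators of mitochondrial genes, transcription factors and their coactivators, made up a list of 10. Of these, 0 were higher and 3 were lower at an unadjusted p-value under 0.05 with *R. flavefaciens*, against 10.8% of all tested genes that were lower, namely Ppargc1b at -0.26, Tfb2m at -0.15 and Yy1 at -0.10, and 0 passed the adjusted threshold in limma, DESeq2 or edgeR. With duloxetine, Tfb1m was higher at 0.27 and Yy1 and Ppargc1b were lower at -0.12 and -0.19 at that unadjusted level in limma, against 2.2% and 1.63% of all tested genes. With both treatments it was Yy1, lower at -0.12, against 8.73%. For *R. flavefaciens* against control, Ppargc1a, Nrf1, Gabpa, Gabpb1, Tfam, Tfb1m and Esrra stood at -0.09, 0.01, -0.03, -0.11, 0.10, 0.16 and 0.16.

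Nuclear subunits of complex IV, the last pump of the respiratory chain, are likewise mostly small proteins made outside the mitochondrion. With *R. flavefaciens*, 11 of 11 were higher at an unadjusted p-value under 0.05, against 8.86% of all tested genes. Of these, 1 passed the adjusted threshold in limma, 1 in edgeR and 8 in DESeq2, where 0.0267%, 0.0267% and 3.26% of all tested genes did, and the median log2 fold change was 0.22. Cox8a stood at 0.36 (adjusted p = 0.0261) and Cox7c at 0.33 (adjusted p = 0.0687). For complex II, whose Sdha, Sdhb, Sdhc and Sdhd are all nuclear, the values were 0.00, 0.10, 0.14 and 0.11, with 2 of 4 higher at an unadjusted p-value under 0.05, against the same 8.86%, and 0 called by limma, edgeR or DESeq2. The vacuolar ATPase, a related rotary enzyme that acidifies vesicles, had a median of 0.01 over 17 genes, with 11 above and 6 below 0. At an unadjusted p-value under 0.05, 3 were higher and 1 lower, against 8.86% and 10.8% of all tested genes, and at the adjusted threshold limma and edgeR called 0 and DESeq2 called 2. Its smallest unadjusted p-values were those of Atp6v1g1 and Atp6v1f, with log2 fold changes of 0.21 and 0.20.

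Markers of the tissue and of other cells were read in the same libraries. All 5 cortical markers were present, with Cux2 the most abundant, and their sum was 10544 ± 453 normalized counts in control mice and 9849 ± 784 with *R. flavefaciens* (SD, n = 6 each), with Fezf2 at a log2 fold change of -0.27. All 8 neuronal markers were present, led by Camk2a, and summed to 154611 ± 4280 and 152206 ± 11012. The 6 striatal markers, led by Ppp1r1b, summed to 1368 to 1937 in control mice and to 1113 to 4720 with the bacterium, where mouse 8_4 was highest. All 5 blood markers, led by Hbb-bs, were detected and summed to 349 ± 65.7 in control mice, 462 ± 265 with duloxetine, 598 ± 204 with *R. flavefaciens* and 633 ± 351 with both treatments, with 4 of 5 higher for the bacterium and 5 of 5 for both treatments at an unadjusted limma p-value under 0.05, against 8.86% and 8.08% of all tested genes. Of 5 choroid plexus markers, Ttr and Kl were in the table, and Ttr had a mean of 126 normalized counts with the bacterium and 1.20 in control mice, mostly through 657 in mouse 8_4. Kl averaged 46.5 with the bacterium and 44.3 in control mice. All 6 microglial markers, led by Csf1r, summed to 3300 ± 166 in control mice, 3649 ± 327 with duloxetine, 3673 ± 263 with *R. flavefaciens* and 3804 ± 509 with both treatments, and C1qa and Tmem119 had log2 fold changes of 0.34 and 0.24 for the bacterium. At an unadjusted limma p-value under 0.05, 4, 3 and 4 of the 6 were higher in these treated groups, in that order. The shares of all tested genes were 2.2%, 8.86% and 8.08%. The 6 astrocytic markers, led by Aldoc, summed to 18803 ± 1158 in control mice and 20728 ± 1748 with the bacterium, the 6 oligodendrocytic ones, led by Mbp, to 24810 ± 7985 and 30156 ± 14723, and the 5 endothelial ones, led by Flt1, to 2794 ± 183 and 3026 ± 138. Of the astrocytic markers, 1 was higher with the bacterium and 3 with both treatments at that unadjusted level, against 8.86% and 8.08%. No marker in the table was at 0 in all mice. Mouse 7_2, second in subunit score, had a blood sum of 418 and a choroid plexus sum of 21.1, and mouse 9_3 had 627 and 104, with the highest microglial sum of its group at 4068. The neuronal and cortical sums of mouse 9_3, 141371 and 9250, lay below the lowest control values of 151710 and 10086. Those of mouse 7_2 were 158849 and 9643. The part of these cells in the levels of the subunits was not tested.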

How the data were processed

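Poly(A) RNA of the mPFC of 24 mice (6 per group, grouped by the sample titles) had been sequenced, checked with FastQC and mapped with TopHat2 (2.1.0, with Bowtie2 2.2.6, per the submitters' processing notes). The deposited signal values are gene counts that the authors normalized with DESeq2 (version 1.18.1), in 1 table of 15456 genes. The supplement names a fixed number of sequences per sample for this step. The column sums, however, ran from 1.35e+07 in mouse 8_4 to 1.46e+07 in mouse 9_1. Methods name GRCm38.p5 and the processing notes mm9, and 14285 genes lie at the same position in GENCODE vM21 (GRCm38), which gave positions and lengths. The counting program, strand setting and gene filter are not given in the sources used here. In each column 1 step returned whole reads, for 99.997% of values within a tolerance of 0.0051, but the step of mouse 2_1, 0.993, lies so near 1 that recovery is less sure there, hence DESeq2 also without it. This gave 12811413 to 15607343 reads per mouse (median 14455107). Their number limits the precision of each count, and tests rest on the spread between mice.

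limma 3.58.1 (R 4.3.3, trended prior) was fitted to log2(value + 1) of all genes averaging 10 or more (14974), with all 4 groups in 1 fit, 8 comparisons, two-sided tests and Benjamini-Hochberg adjustment within each comparison (threshold 0.05). Single members were also compared by exact two-sided permutation tests over 924 groupings. Lists are described by counts and medians. Python 3.11.15, numpy 2.4.6, pandas 2.3.3, scipy 1.17.1 and matplotlib 3.10.9 were used, and the fits were tested on simulated data. Transcript length is that of the shortest best-supported principal transcript. Alternatives were 0.1 as pseudocount, a filter at a mean of 50 or none, quantile or 75th percentile scaling, the first label number as a random block, removal of loess trends (span 0.3) with length, GC content or both, DESeq2 1.42.0 and edgeR 4.0.16 on recovered reads, DESeq2 without mouse 2_1, only the groups compared, an adjusted p-value under 0.1, and leaving out each mouse. The unadjusted counts, the alternatives for mt-Atp8, the fit of both trends and DESeq2 without mouse 2_1 were added after the data had been seen. Members and lists were chosen with earlier results of these data known. Genes named are all members, all genes of lists of at most 10 other than the marker lists, otherwise the 2 with the smallest p for *R. flavefaciens* against control, and the 5 genes most like the members' mean. Of the marker lists, only the most abundant gene and Fezf2, Ttr, Kl, C1qa and Tmem119 are named. The value of 1 gene of the exchange list is not reported here. Protein sequences were not used here.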

Additional observations from a re-analysis of the deposited data

Results flagged for a closer look

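Among 44 sets of 6 mice (each member and the members' mean in each group) checked for a mouse far from the rest, 3 had a mouse whose gap to its nearest neighbour, as a share of the whole range, passed Dixon's 95% critical value. Chance gives about 1 in 20. Atp5e and Atp5h in the *R. flavefaciens* group were set apart by mouse 9_3, at 1286 and 2034 normalized counts, with gaps of 0.678 and 0.674 of the range. The mean of the 10 members in the combined group was set apart by mouse 10_2, at a log2 difference of 0.181 from the control means, with a gap of 0.666.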

How the results depend on the processing

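The number of members past an adjusted p-value of 0.05 for *R. flavefaciens* against control, 0 in limma, was 3 with DESeq2, 3 with DESeq2 without mouse 2_1, 2 with the random block (whose estimated correlation was -0.0451), 3 at an adjusted p-value under 0.1, and between 0 and 5 when 1 mouse was left out, with 3 without mouse 8_3, 1 without 9_1 and 5 without 9_2. For both treatments against *R. flavefaciens* it was 1 with the length trend removed, 1 with DESeq2 and 1 under 0.1, and from 0 to 1 when 1 mouse was left out (1 without 9_2 or 10_2). For both against control it was from 0 to 1 (1 without 9_3), and for the averaged bacterium 1 with DESeq2, with or without mouse 2_1. For the random block and the limma fits without 1 mouse, no share of all tested genes is given here, adjusted or unadjusted. The share called with the length trend removed is not given here either. The median log2 fold change of the members for *R. flavefaciens* against control, 0.18, moved to 0.075 with the length trend removed and 0.053 with both trends removed, and that of both treatments against control from 0.03 to -0.055 with the length trend removed. Members with an unadjusted p-value under 0.05 numbered 4 and 3 for *R. flavefaciens* in these fits (7 to 8 when 1 mouse was left out). For the averaged bacterium, 4, they numbered 0 with the length trend or both trends removed, 8 with quantile normalization and 3 to 6 when 1 mouse was left out. For averaged duloxetine, 1, they numbered 4 with the length trend or both trends removed, 2 with the GC trend removed, quantile normalization, the random block or DESeq2, 0 at the 75th percentile and 1 to 3 when 1 mouse was left out. For duloxetine against control they numbered 2 with only the groups compared, and leaving out 1 mouse gave 1 to 3 for both against control and 0 to 1 for both against duloxetine. For both against *R. flavefaciens* they numbered 3 with quantile normalization, 2 at the 75th percentile, 1 with only the groups compared, 9 with the length trend removed, 8 with the GC trend or both trends removed, and 2 to 9 when 1 mouse was left out. For the interaction they numbered 3 with quantile normalization, 3 with both trends removed, and 3 to 7 when 1 mouse was left out.

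Of the medians, that of duloxetine against control turned to -0.0014 with the length trend removed, and that of both treatments against duloxetine, -0.01, to 0.017 with quantile normalization and 0.00096 at the 75th percentile. Signs of single members turned as follows. For *R. flavefaciens* against control this was Atp5a1, at -0.013 with the length trend and -0.010 with both trends removed, and from -0.016 to 0.025 when a mouse was left out. For duloxetine it was Atp5b, at 0.0014 with the 75th percentile, and, with the length trend and both trends removed, Atp5c1 (-0.012 and -0.013), Atp5g1 (-0.036 and -0.027) and Atp5g3 (-0.034 and -0.033). For both treatments against control, the same fits gave Atp5c1 -0.059 and -0.063, Atp5d -0.051 and -0.014, Atp5e -0.040 and -0.037, Atp5g3 -0.101 and -0.101, Atp5h -0.020 and -0.020, and Atp5j -0.017 and -0.0093. With the GC trend alone removed, Atp5c1 and Atp5g3 stood at -0.011 and -0.0049, and Atp5g1 turned to 0.031 with quantile normalization, 0.019 at the 75th percentile and 0.0029 in DESeq2 without mouse 2_1. Leaving out 1 mouse gave -0.0073 to 0.036 for Atp5c1, -0.051 to 0.023 for Atp5g1 and -0.018 to 0.044 for Atp5g3. The cause was not tested beyond what each setting removes. Each first label number stands in 1 group only, and the random block estimated the likeness of its mice within groups. No paired analysis was possible because the groups share no replicate numbers.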
